A study of Arabidopsis thaliana with 6 samples.

Results

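The 4 arrays of an estradiol-inducible Arabidopsis line, pooled whatever the length of induction, were compared with the 2 arrays of an empty-vector line, which makes all 6 arrays of the series. Every array held RNA from whole seedlings harvested at 14 days with 4 rosette leaves, grown on lehle plates in constant light and carrying a T-DNA. In the prolonged group (2 arrays, background Ler-1), seedlings were sown on 2 µM 7-B-estradiol, as the labels spell the inducer, and sprayed again every 24 h until harvest. Temporal induction (2 arrays, Ler-1) was a single spray with 2 µM 7-B-estradiol at day 13, with harvest 24 h later. Control seedlings (2 arrays, Ler-0) carried the PER-10 vector alone and received a single 2 µM spray, written there as 17-B-estradiol, at day 13, 24 h before harvest. The series title names inhibited chloroplast division, but the labels do not name the transgene, its promoter or the number of lines behind it. No array of the inducible line without inducer was analysed here. A standing difference between the lines, their backgrounds Ler-1 and Ler-0, and a response to the transgene thus cannot be told apart. No empty-vector array had the prolonged treatment, so repeated inducer and spraying cannot be told apart from prolonged induction of the transgene. Whether the 2 arrays of a group stand for independently grown seedlings is not stated, and a p-value here speaks only to the spread among the 6 arrays, which may be technical.

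Chloroplasts arise by fission of existing chloroplasts, in which a ring of FtsZ proteins inside the organelle and a dynamin-type ring outside it close together. When fission fails, leaf cells keep a few very large chloroplasts in place of many small ones. Most chloroplast proteins are encoded in the nucleus and imported, while the plastid's own genome encodes parts of its photosystems, its ribosomes and an RNA polymerase. Nuclear genes for chloroplast proteins are known to respond to signals from the organelle.

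Of 22746 Arabidopsis probe sets on the ATH1 array, 15922 were tested after the 30% with the lowest mean log2 signal, below 23.5 signal units, were left out. A leaf marker and a root marker were strong on all arrays. The antenna gene LHCB4.1 read 4131 to 5378 units on induced and 5548 and 5466 on control arrays. The root gene PYK10 read 2618 to 3820 on induced and 4006 and 4660 on control arrays. Of 21 root markers 3 were measured, and most of their summed signal came from PYK10. Medians of the 6 arrays lay between 53.1 and 58.8 units. Arrays correlated at r = 0.881 to 0.914 within a group and at 0.895 to 0.914 between the prolonged and temporal groups, against 0.834 to 0.867 between induced and control arrays, across probe sets. The 3′ to 5′ signal ratio of the GAPDH control, a measure of RNA integrity and labelling, was 2.22 to 2.67 on induced arrays and 1.82 and 2.38 on control arrays. Of 11 probe sets for spiked-in hybridization controls, 3 read lower on all 4 induced arrays than on both control arrays and 0 read higher. The spike cre-3, for example, read 12273 to 12781 units on induced arrays and 13129 and 16552 units on control arrays. The part of these technical measures in the results below was not tested.

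Induced seedlings differed from control seedlings at 911 of the 15922 probe sets, 5.72% (limma, adjusted p under 0.05). Signals were higher in induced seedlings at 583 of them (3.66%) and lower at 328 (2.06%). On all 911, every induced array lay on the same side of both control arrays, which was also so for 4788 probe sets, 30.1%, whatever their p. Of those 4788, 2366 (14.9%) were above and 2422 (15.2%) below both control arrays. The median log2 fold change was 1.08 for rises and -0.76 for falls, beside a median of -0.02 over all tested probe sets. Rises of over 2-fold numbered 335 and falls of that size 59, while 105 rises and 1 fall passed 4-fold. The median signal of the rises was 262 units in induced and 119.7 units in control seedlings. That of the falls was 442 units in induced and 719 units in control seedlings. The filter used the mean over 6 arrays, 4 of them induced, so a gene low in control could enter through the induced arrays. For 79 of the rises the control mean lay below 23.5 units, and 0 falls had an induced mean below it, so the sizes of rises and falls are not on an equal footing. With 4 arrays against 2, a two-sided exact rank test of a single gene cannot go below p = 0.133. The calls thus draw on the spread shared across probe sets. That sharing matters to the count: without letting the expected spread follow signal level, 95 probe sets passed, 93 of them rises and 2 falls. Without control replicate 1, 421 passed (360 rises and 61 falls), and without control replicate 2, 505 passed (422 rises and 83 falls).

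**Figure D1:**
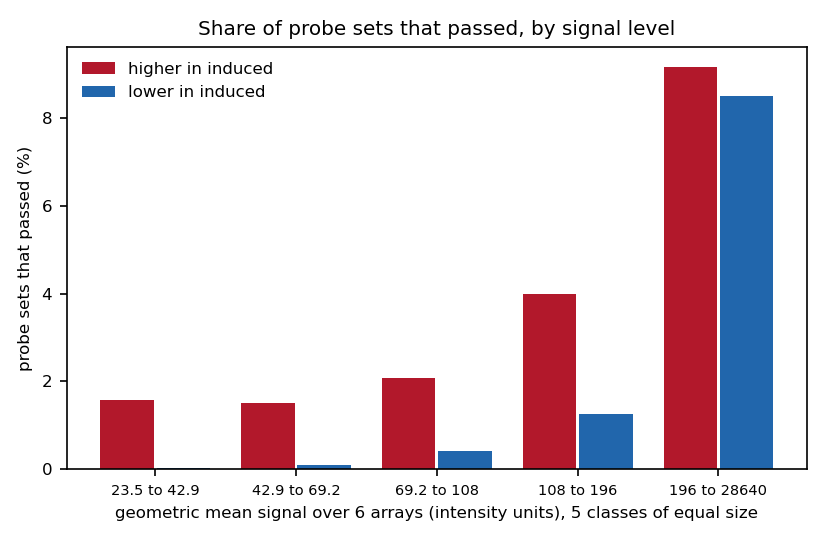
Share of tested probe sets that passed at adjusted p under 0.05 (vertical axis, percent) in 5 classes of equal size by mean signal (horizontal axis, geometric mean over 6 arrays, intensity units), with bars for probe sets higher and lower in induced seedlings. In the class of highest signal 9.17% rose and 8.51% fell, while in the lowest 1.57% rose and 0.0314% fell.

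The share of probe sets that passed followed signal level in both directions, as the bar plot by signal class shows. In the 20% of probe sets with the highest signal, from 196 to 28640 units, 292 probe sets rose and 271 fell. In the lowest 20%, 50 rose and 1 fell. Of the 911 probe sets, 400 carry a single gene symbol in the platform annotation, 270 of them rises and 130 falls, and genes were named from these.

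The largest rises among named genes included a pair of lipid-transfer proteins and ATA27, a gene known from anthers, the pollen-forming organs. AT1G66850, of the lipid-transfer protein family, read 383 and 714 units in prolonged, 307 and 297 in temporal, and 2.40 and 88.9 in control seedlings. Its log2 fold change was 4.77 (SE 0.99, limma adjusted p = 0.0165), but the control arrays were themselves far apart. AT5G22430, of the pollen Ole e 1 allergen and extensin family, read 315 and 259 in prolonged, 141 and 284 in temporal, and 19.3 and 7.40 in control seedlings. All induced readings were well clear of both control readings, and the log2 fold change was 4.32 (SE 0.40, limma adjusted p = 0.000208). AT5G62080, another lipid-transfer protein, read 82.1 and 127 in prolonged, 125 and 111 in temporal, and 11.2 and 12.6 in control seedlings. Its control arrays were close together and both low, and the log2 fold change was 3.21 (SE 0.33, limma adjusted p = 0.000451). ATA27, a beta-glucosidase known from the anther tapetum, read 89.7 and 116 in prolonged, 75.0 and 69.7 in temporal, and 3.98 and 20.5 in control seedlings, a log2 fold change of 3.25. AT1G68875, which has no described role here, rose by 4.18 on the same scale. AT5G22430, ATA27 and AT1G68875 also read below 23.5 units on both control arrays. Sizes of rises from such low readings are uncertain.

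Genes of the waxy and polyester layer that seals the shoot surface also rose. Both tested members of a list of 25 wax and cutin genes passed, WSD1 and AT5G33370, with all induced arrays above both controls. Of all tested probe sets 3.66% rose, and 14.9% had all induced arrays above both controls. WSD1, the wax ester synthase of stems, read 93.7 and 80.9 in prolonged, 70.3 and 68.1 in temporal, and 23.6 and 3.11 in control seedlings. That is a log2 fold change of 3.18 (SE 0.67, limma adjusted p = 0.0179), on control readings at or below the low-signal limit. AT5G33370 is a GDSL-type lipase of the cutin synthase family, also called CUS2, and is among the best-supported rises. It read 385 and 445 in prolonged, 373 and 328 in temporal, and 61.8 and 42.5 in control seedlings. Every induced array was several times above either control, with a log2 fold change of 2.89 (SE 0.20, limma adjusted p = 2.36e-05). AT2G42990, another GDSL lipase, had 74.0 to 84.4 units in the 4 induced arrays and 18.6 and 4.22 in control seedlings, a log2 fold change of 3.16. Both of its control readings were below the low-signal limit. Among the 8 genes of this paragraph and the one before, AT1G68875 included, WSD1 alone lost its call when an induced array was left out. Its limma adjusted p was 0.0678 without prolonged replicate 1 and 0.0536 without prolonged replicate 2. With the temporal arrays as the only induced ones, 3 of the 8 passed. AT1G66850, AT1G68875, ATA27, WSD1 and AT2G42990 did not (limma adjusted p up to 0.200). With the prolonged ones 6 passed, without WSD1 and AT2G42990. An offset before the logarithm moved log2 fold changes of the 8 by up to 2.04, and all 8 passed.

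Markers of anthers and flowers were read beside these rises, since the tissue was whole seedlings. Of 25 anther and tapetum markers, 5 had a probe set and 3 were tested: ATA27 rose, and all 3 read above both control arrays, with a median log2 fold change of 1.69. Beside these counts, 3.66% of all tested probe sets rose and 14.9% had all induced arrays above both controls. The other two were AT1G75920, known as EXL5, at 1.69 (limma adjusted p = 0.0607), and AT5G07230, known as A9, at 1.31 (limma adjusted p = 0.199). The summed signal of the 5 measured markers was 215 to 320 units in induced and 58.0 to 108 units in control seedlings, and none was at 0. AGL24, a MADS-box promoter of flowering, read 74.6 and 44.8 in prolonged, 79.9 and 81.4 in temporal, and 21.3 and 21.0 in control seedlings. It was the single measured gene of 18 flowering and floral organ markers, and all induced arrays were above both controls (log2 fold change 1.69, SE 0.38, limma adjusted p = 0.0248). That call was lost, at adjusted p of 0.0699 to 0.0843, on leaving out prolonged replicate 1, a temporal array or a control array. In whole seedlings, more cells of a type and more RNA per cell cannot be told apart, and the part of these markers in the other rises was not tested.

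**Figure D2:**
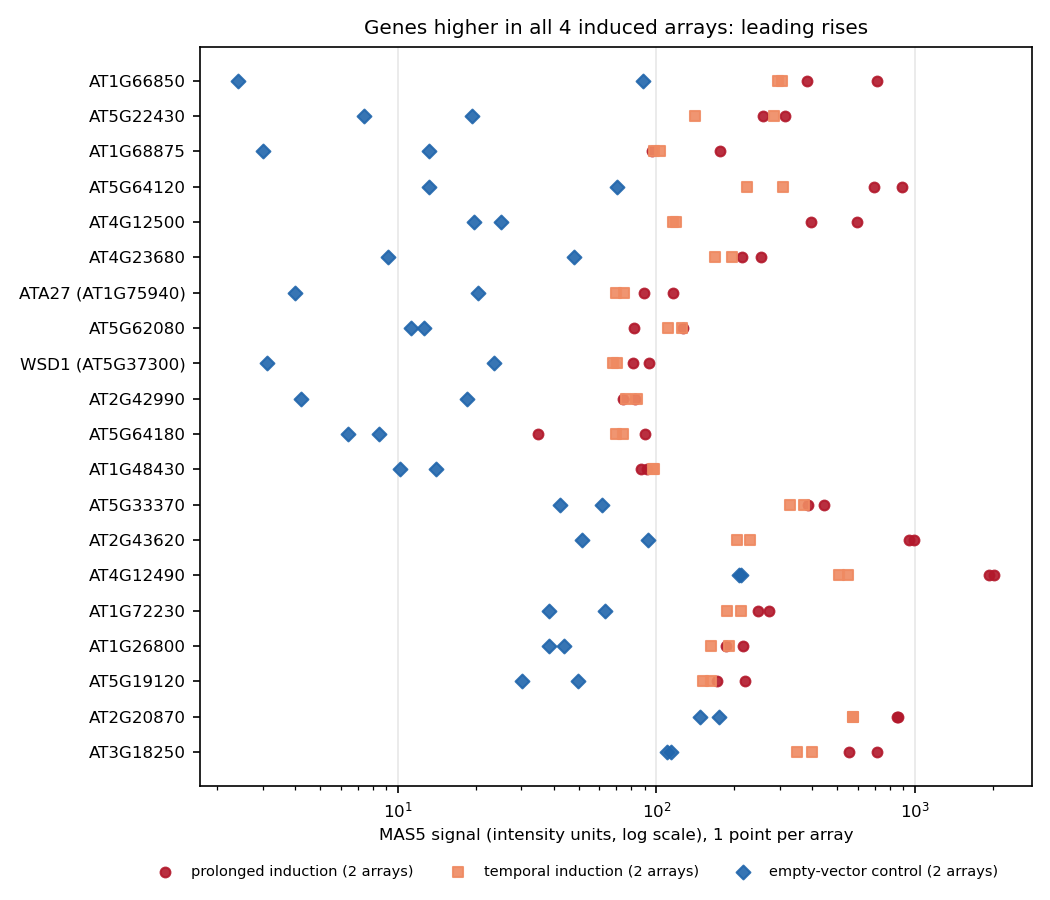
MAS5 signal (horizontal log axis, intensity units) of 20 genes chosen for their rise in induced over control seedlings, with 1 point per array for prolonged induction, temporal induction and empty-vector control. The upper 12 are the largest rises and the lower 8 the largest among genes with all 6 arrays above 23.5 units. All 4 induced points lie right of both control points for each gene.

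Other leading rises included a peroxidase, a chitinase family gene and a pair of proline-rich lipid-transfer genes. AT5G64120, the class III peroxidase PRX71 of the cell wall, read 695 and 890 in prolonged, 223 and 308 in temporal, and 13.2 and 70.7 in control seedlings. Its log2 fold change was 3.90 (SE 0.62, limma adjusted p = 0.00457). AT4G12500 and AT4G12490 are neighbouring genes of the proline-rich lipid-transfer family that includes the systemic immunity gene AZI1. AT4G12490 read 1939 and 2028 in prolonged, 554 and 507 in temporal, and 208 and 212 in control seedlings. The groups stood in 3 separate steps, each with arrays close together. AT2G43620, a chitinase family gene, showed the same arrangement at 945 and 996 in prolonged, 205 and 230 in temporal, and 51.4 and 93.1 in control seedlings. Log2 fold changes were 3.43 for AT4G12500, 2.29 for AT4G12490 and 2.73 for AT2G43620, with limma adjusted p of 0.00576, 0.0208 and 0.0194. Members of these families are close in sequence, so probe sets may share signal. AT4G23680, of the major latex protein family, read 169 to 253 units on induced arrays and 9.15 and 48.1 on control arrays, with a log2 fold change of 3.29.

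The wider list of pathogenesis-related genes was read beside them. Of its 17 genes, 9 were tested and the 3 just named rose, 0 fell, and 4 had all induced arrays above both controls. The shares over all tested probe sets were 3.66% for rises, 2.06% for falls and 14.9% for all induced arrays above both controls. The median log2 fold change of the 9 was 0.64, but the list was mixed, with values on both sides of 0. In the fit with 3 groups 3 of the 9 rose and 1 fell. The same counts were found with the prolonged arrays as the only induced ones. In the pooled comparison, 0 of the 9 had all induced arrays below both controls. The fourth gene with separate arrays was the defensin PDF1.2, at 24.1 to 56.5 units in induced and 8.70 and 17.3 in control seedlings (limma adjusted p = 0.193). Leaving out control replicate 1, control replicate 2 or prolonged replicate 1 ended the calls of AT4G12490 and AT2G43620. The limma adjusted p was up to 0.167, 0.101 and 0.0515 in that order, while AT5G64120, AT4G12500 and AT4G23680 passed each time. Without letting the expected spread follow signal level, 0 of these 5 genes passed.

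In most other leading rises the prolonged and temporal arrays lay closer to each other than to control. AT1G26800, a RING-type ubiquitin ligase, read 216 and 186 in prolonged, 163 and 191 in temporal, and 44.1 and 38.3 in control seedlings. Its prolonged and temporal readings overlapped, and the log2 fold change was 2.19 (SE 0.21, limma adjusted p = 0.000232). AT1G72230, a cupredoxin family copper protein, read 187 to 274 on induced arrays and 63.5 and 38.3 on control arrays, a 4.61-fold rise. AT5G19120, of the aspartyl protease family, read 151 to 221 on induced arrays and 30.3 and 49.7 on control arrays, a log2 fold change of 2.17. For these 3 genes the 95% intervals of the prolonged minus temporal log2 difference were -0.35 to 0.72, -0.20 to 0.97 and -0.34 to 0.96. AT2G20870, a putative cell wall protein, stood higher after prolonged induction, at 859 and 850 in prolonged, 574 and 578 in temporal, and 148 and 174 in control seedlings. AT3G18250 rose by 2.12, AT5G64180 by 3.11 and AT1G48430, a dihydroxyacetone kinase family gene, by 2.97 on the log2 scale. AT5G64180 and AT1G48430 read below 23.5 units on both control arrays. With an offset before the logarithm, log2 fold changes in this group moved by up to 1.60. All 7 genes of this group passed without any single array.

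Probe sets with no gene symbol included the largest rise of all. Probe set 247718_at read 1954 and 1795 in prolonged, 865 and 867 in temporal, and 4.40 and 10.8 in control seedlings. Its control readings were near the floor and its induced readings among the high ones of the array, with a log2 fold change of 7.53 (SE 0.39, limma adjusted p = 5.13e-06). Probe set 245668_at followed, at 313 to 508 on induced arrays and 14.8 and 4.59 on control arrays, a log2 fold change of 5.62. Which genes these probe sets stand for was not settled here.

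Some genes for recycling and breakdown of cell material rose. The autophagy, starvation, photorespiration, thiol redox, cytosolic ribosomal and nuclear-encoded plastid ribosomal lists were drawn up once the leading genes were known, so they give no independent support. The other lists, before and after, were chosen with earlier results of these data known, and the same holds for them. Counts in these and later lists stand beside 3.66% of all tested probe sets that rose and 2.06% that fell. All induced arrays lay above both controls for 14.9% of all tested probe sets and below both for 15.2%. In the class of highest signal 9.17% rose and 8.51% fell. Autophagy wraps cell contents in a membrane, with ATG8 proteins coupled to that membrane, and delivers them to the vacuole. Of 13 tested autophagy genes 3 rose and 0 fell, all of the ATG8 family, and 9 had every induced array above both controls against 1 below. The median log2 fold change of the 13 was 0.54. ATG8E read 282 and 201 in prolonged, 207 and 218 in temporal, and 117 and 92.3 in control seedlings. All 4 induced arrays were clear of the controls (log2 fold change 1.12, SE 0.20, limma adjusted p = 0.00744). APG8H (AT3G15580), a further ATG8 protein, read 420 to 484 on induced arrays and 280 and 256 on control arrays, a log2 fold change of 0.70. ATG8F, more strongly expressed, read 977 to 1246 on induced arrays and 775 and 678 on control arrays, a log2 fold change of 0.54 (limma adjusted p = 0.0385).

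Genes that plants raise when sugar runs short, and genes of amino acid and purine breakdown, were listed together. Of 9 tested members 3 rose and 0 fell, 8 had all induced arrays above both controls, and the median log2 fold change was 0.72. AT3G15450, a sugar-repressed gene of the aluminium-induced protein family, read 1370 and 1639 in prolonged, 1539 and 1234 in temporal, and 397 and 517 in control seedlings. Prolonged and temporal readings were interleaved, and the log2 fold change was 1.67 (SE 0.15, limma adjusted p = 0.000171). ALN, the allantoinase of purine breakdown, read 282 to 359 on induced arrays and 111 and 143 on control arrays (2.46-fold). ALDH6B2, a dehydrogenase of valine breakdown, read 210 to 250 on induced arrays and 104 and 136 on control arrays (log2 fold change 0.92). MCCA, a subunit of the leucine-degrading methylcrotonyl-CoA carboxylase, read 46.3 to 75.1 on induced arrays and 6.40 and 36.8 on control arrays but did not pass (limma adjusted p = 0.083). Across the 6 genes of both lists that passed, 3 kept the call without control replicate 1 (the highest adjusted p was 0.125) and 3 without control replicate 2 (0.234). AT3G15450 and ALN passed without either, while ATG8F and APG8H lost their calls in both cases. ATG8F also lost its call, at adjusted p of 0.0543 to 0.0663, without each induced array in turn.

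The leading falls spanned genes of several kinds. AT3G28550, an extensin-like protein of the cell wall, was the single named fall of over 4-fold. It read 19.99 and 39.5 in prolonged, 22.3 and 52.9 in temporal, and 219 and 129 in control seedlings (log2 fold change -2.44, SE 0.44, limma adjusted p = 0.00858). AT3G16670, annotated in the pollen Ole e 1 allergen and extensin family, read 126 and 180 in prolonged, 291 and 357 in temporal, and 651 and 638 in control seedlings. Its groups stood in 3 steps, with prolonged lowest (log2 fold change -1.55, SE 0.33, limma adjusted p = 0.0179). AT3G05730, a defensin-like gene, showed the same order at 196 and 215 in prolonged, 336 and 321 in temporal, and 711 and 593 in control seedlings, a log2 fold change of -1.32.

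Both tested flavonoid genes fell. DFR, the dihydroflavonol reductase that leads into anthocyanin pigments, read 58.9 and 88.0 in prolonged, 100.3 and 128 in temporal, and 249 and 247 in control seedlings. All induced arrays were well below the closely matched controls (log2 fold change -1.46, SE 0.27, limma adjusted p = 0.0103). UF3GT, which adds a sugar to anthocyanins, read 77.5 to 102 on induced arrays and 140 and 220 on control arrays, a log2 fold change of -0.96 (limma adjusted p = 0.0366). Other leading falls had log2 fold changes of -1.12 to -1.45: AT4G20760 (a short-chain dehydrogenase), AT3G24250 (a glycine-rich protein), AT1G67330, AT4G31200, AT4G30620, AT1G60590 (of the pectin lyase family) and AT1G62780. Among probe sets with no symbol, 263549_at fell by 1.88 and 250006_at fell by 1.51 on the log2 scale. The call of 263549_at was marginal (limma adjusted p = 0.0499) and was lost without any 1 of the 6 arrays, at adjusted p of 0.0502 to 0.270, and at 0.0571 in the fit with 3 groups and 0.0578 to 0.0610 under the other normalizations. That of 250006_at was lost without control replicate 1 (0.146), control replicate 2 (0.169) or prolonged replicate 1 (0.0812).

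The calls of these falls, more than their sizes, depended on having both control arrays in the fit. They also depended on letting the expected spread follow signal level. Of 12 leading falls, the plastid gene rpoC2 aside and UF3GT included, 1 passed without control replicate 1 (UF3GT; the highest adjusted p was 0.215). Without control replicate 2, 3 passed (AT3G28550, AT3G05730 and AT1G62780; the highest was 0.297). Leaving out a single induced array kept 8 to 10 of the 12, the calls lost being among AT4G20760, AT1G67330, AT4G31200 and UF3GT, at adjusted p up to 0.0901. The log2 fold change of DFR was -1.45 without control replicate 1 and -1.46 without control replicate 2, and that of AT3G16670 was -1.53 and -1.56. Over the 12 genes, leaving out a control array moved the log2 fold change by at most 0.38. Each gene kept its direction throughout, and on all 12 every induced array lay below both controls. Without letting the expected spread follow signal level, 0 of the 12 passed.

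**Figure D3:**
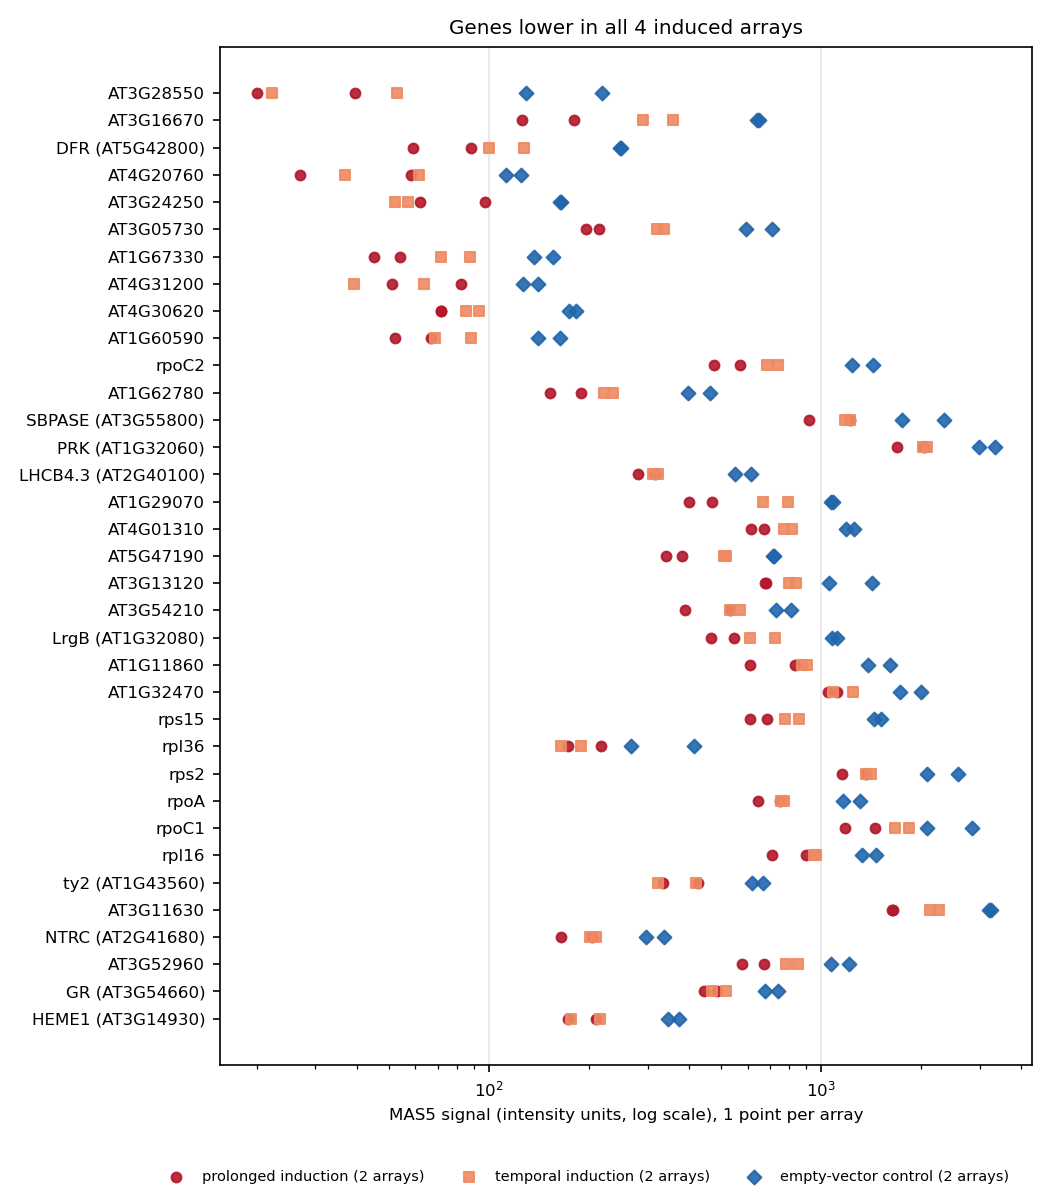
MAS5 signal (horizontal log axis, intensity units) of the 12 largest named falls, from AT3G28550 to AT1G62780, and below them the members of the plastid-related lists that fell, with 1 point per array for prolonged induction, temporal induction and empty-vector control. All 4 induced points lie left of both control points for each gene.

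In carbon fixation and photorespiration, the genes that passed fell by less than 2-fold. All 3 tested Calvin cycle genes had every induced array below both controls, 2 of them passed, and the median log2 fold change was -0.69. PRK, which makes the sugar phosphate that accepts CO2, read 2039 and 1689 in prolonged, 2074 and 2023 in temporal, and 3332 and 2989 in control seedlings (log2 fold change -0.69, SE 0.13, limma adjusted p = 0.00887). SBPASE, a bisphosphatase of the regeneration phase, read 918 to 1221 on induced arrays and 2337 and 1750 on control arrays, a log2 fold change of -0.85. RCA, the activase of Rubisco, read 8959 to 11299 on induced arrays and 14256 and 13024 on control arrays, without passing (limma adjusted p = 0.145). In photorespiration, the salvage of the product Rubisco forms with oxygen, 3 of 6 tested genes fell, 5 had all induced arrays below both controls, and the median was -0.63. LrgB, the plastid glycolate and glycerate transporter also called PLGG1, read 546 and 465 in prolonged, 608 and 724 in temporal, and 1114 and 1078 in control seedlings. All induced arrays were well below the controls (log2 fold change -0.92, SE 0.16, limma adjusted p = 0.00767). A pair of subunits of the glycine-splitting complex of mitochondria also fell, the T protein AT1G11860 by 0.91 and the H protein AT1G32470 by 0.73 on the log2 scale.

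In light harvesting and pigment synthesis, LHCB4.3 and HEME1 passed. LHCB4.3, an antenna protein of photosystem II, read 281 and 315 in prolonged, 312 and 323 in temporal, and 614 and 552 in control seedlings. The 4 induced arrays were within a narrow range below both controls (log2 fold change -0.92, SE 0.13, limma adjusted p = 0.00288). Its relatives did not pass and lay on opposite sides: LHCB4.1 at -0.26 and LHCB4.2 at 0.29. None of the 5 tested photosystem and electron carrier genes passed, though 3 had all induced arrays below both controls and the median was -0.31. At an unadjusted p under 0.05, limma put 3 of the 5 past. HEME1, the uroporphyrinogen decarboxylase of chlorophyll and haem synthesis, was the 1 fall among 10 tested tetrapyrrole genes. It read 173 to 215 on induced arrays and 345 and 374 on control arrays (log2 fold change -0.90), and 5 of the 10 had all induced arrays below both controls, with a median of -0.41. Of these 7 photosynthesis, photorespiration and pigment genes, PRK, SBPASE, HEME1 and LrgB lost their calls without control replicate 1 (adjusted p up to 0.119). Without control replicate 2, HEME1, AT1G11860 and AT1G32470 lost theirs (up to 0.0777).

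Proteins that pass electrons from light to thiol groups of chloroplast enzymes, or use them to remove peroxides, fell in part. Of 12 tested genes 5 fell and 0 rose, 9 had all induced arrays below both controls, and the median log2 fold change was -0.56. AT3G11630, the 2-Cys peroxiredoxin A, read 1629 and 1640 in prolonged, 2117 and 2255 in temporal, and 3234 and 3185 in control seedlings. Its groups stood in 3 separate steps, with a log2 fold change of -0.76 (SE 0.15, limma adjusted p = 0.0135). NTRC, the NADPH-dependent thioredoxin reductase that recharges this peroxiredoxin, read 164 to 210 on induced arrays and 297 and 337 on control arrays, a log2 fold change of -0.70. The thioredoxin ty2 fell by 0.79, the peroxiredoxin AT3G52960 by 0.68 and the organellar glutathione reductase GR by 0.57 on the log2 scale. None of the 5 passed without control replicate 1 (adjusted p up to 0.207) or without control replicate 2 (up to 0.184). NTRC and AT3G52960 also lost their calls without prolonged replicate 2 (up to 0.0650).

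The plastid genome was divided by the role of its genes. How fully the one-cycle labelling of these arrays captures plastid and mitochondrial transcripts was not tested, so their signals may not follow transcript levels. Of 69 tested plastid genes 7 fell, 10.1%, and 1 rose. Among all probe sets in the class of highest signal, 8.51% fell. All 7 plastid falls were among the 19 genes that encode ribosomal proteins or subunits of the plastid RNA polymerase. Of these 19 genes, 13 had all induced arrays below both controls, and the median log2 fold change was -0.53. The 43 genes of photosystems, ATP synthase, Rubisco and the NDH complex had a median of 0.06, with 1 rise, 6 genes above and 4 below both controls. RNA polymerase subunit rpoC2 read 569 and 474 in prolonged, 685 and 741 in temporal, and 1426 and 1237 in control seedlings (log2 fold change -1.13, SE 0.17, limma adjusted p = 0.00365). The ribosomal protein gene rps15 read 688 and 608 in prolonged, 778 and 854 in temporal, and 1439 and 1510 in control seedlings (log2 fold change -1.02, SE 0.14, limma adjusted p = 0.00242). For both genes all induced arrays were far below either control. The other falls were rpl36 (-0.84), rps2 (-0.81), rpoA (-0.76), rpoC1 (-0.69) and rpl16 (-0.67). The rise was ndhE, a subunit of the NDH complex, at 1680 to 2014 on induced arrays and 1427 and 801 on control arrays (log2 fold change 0.79, limma adjusted p = 0.0348).

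The 2 control arrays differed over the plastid genome as a whole. The median log2 fold change of the 69 genes was -0.16, but 0.08 with 16 rises and 4 falls without control replicate 1, and -0.43 with 0 rises and 6 falls without control replicate 2. Quantile normalization gave -0.04, with 6 rises and 6 falls. Without control replicate 1 the calls of rpoC1, rps2 and rpl16 were lost, and without control replicate 2 those of rpoA, rpoC1, rpl16, rpl36 and ndhE, at adjusted p up to 0.354 and 0.283. The calls of rpoC1, rpl36 and ndhE were also lost on leaving out 1 or more induced arrays, at adjusted p up to 0.107.

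Nuclear genes for ribosomal proteins also fell in part. Of 10 tested nuclear genes for plastid ribosomal proteins 5 fell and 1 rose, 9 had all induced arrays below both controls, and the median log2 fold change was -0.63. AT4G01310, for the large-subunit protein L5, read 671 and 615 in prolonged, 772 and 813 in temporal, and 1185 and 1252 in control seedlings (log2 fold change -0.77, SE 0.14, limma adjusted p = 0.00786). AT1G29070, for the protein L34, read 467 and 399 in prolonged, 795 and 666 in temporal, and 1088 and 1067 in control seedlings (log2 fold change -0.94, SE 0.23, limma adjusted p = 0.0345). In both, prolonged readings were lowest and all induced arrays were below the controls. The gene that rose, AT5G24490, encodes a plastid-specific ribosome-associated protein and read 447 to 591 on induced arrays and 260 and 370 on control arrays. None of the 6 passed without control replicate 1 (adjusted p up to 0.340), and 2 passed without control replicate 2 (the highest was 0.233). Leaving out prolonged replicate 1 or 2 kept 2 of the 6, and leaving out temporal replicate 1 or 2 kept 4 and 5, with adjusted p up to 0.0906.

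Cytosolic ribosomal proteins made up the list with the most tested genes. Of 121 tested genes 25 fell and 1 rose, 73 had all induced arrays below both controls against 4 above, and the median log2 fold change was -0.37. AT5G47700, an acidic stalk protein, read 1030 and 980 in prolonged, 1115 and 1224 in temporal, and 1695 and 1917 in control seedlings (log2 fold change -0.73, SE 0.13, limma adjusted p = 0.00701). AT5G61170, for the small-subunit protein S19, read 721 to 902 on induced arrays and 1368 and 1300 on control arrays, a log2 fold change of -0.70. AT3G04840, for the small-subunit protein S3A, fell by 0.63. The exception was AT3G28500, another acidic stalk protein, at 349 to 438 on induced arrays and 198 and 224 on control arrays (log2 fold change 0.86, limma adjusted p = 0.00744). The number of falls moved with the processing: 11 fell after quantile normalization, 1 without control replicate 1 and 2 without control replicate 2, where the median was -0.34, -0.41 and -0.38. Ribosomal protein genes occur in near-identical copies, so a probe set may read more than 1 of them.

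**Figure D4:**
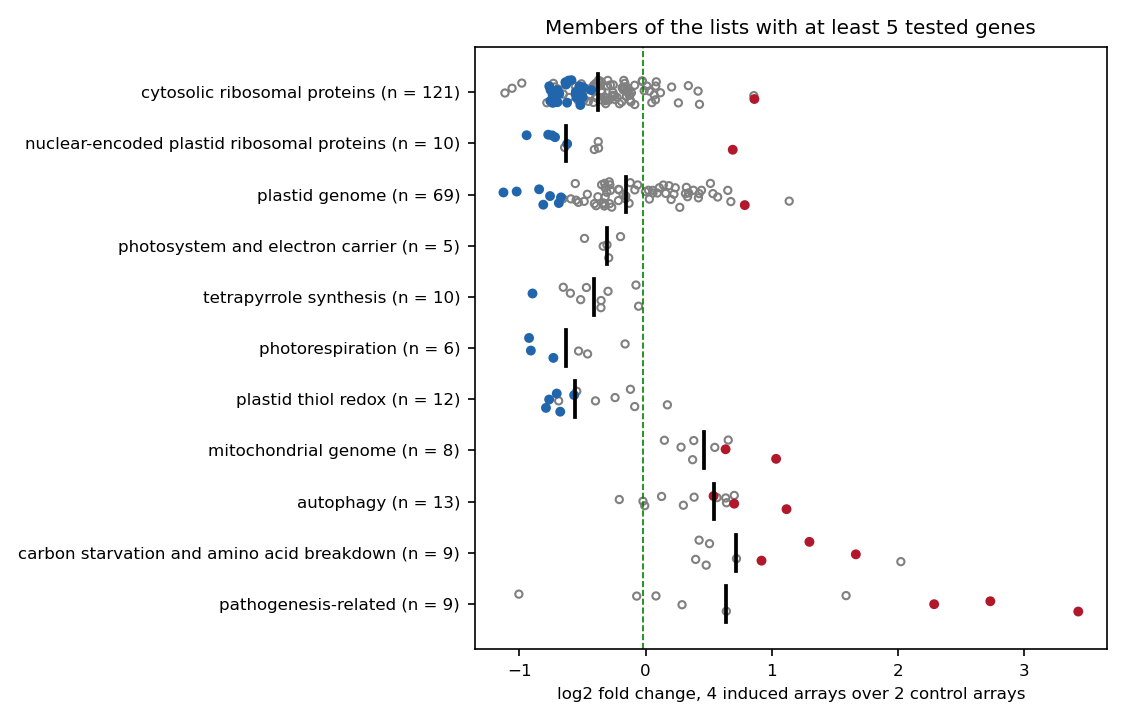
Log2 fold change of the 4 induced arrays over the 2 control arrays (horizontal axis) for each tested member of the lists with at least 5 tested genes. Filled points passed at adjusted p under 0.05, open points did not, black bars are list medians and the dashed line is the median of all tested probe sets, -0.02. The ribosomal, plastid and photosynthetic lists have medians below the dashed line, from -0.16 to -0.63, and the mitochondrial, autophagy, starvation and pathogenesis-related lists above it, from 0.46 to 0.72.

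Both mitochondrial genes that passed were higher in induced seedlings. Of 8 tested mitochondrial genes 2 rose and 0 fell, 6 had all induced arrays above both controls, and the median log2 fold change was 0.46. The respiratory genes cox1, at 340 to 449 on induced arrays and 241 and 238 on control arrays, and nad4L, at 101 to 169 on induced arrays and 66.8 and 54.1 on control arrays, passed. Their log2 fold changes were 0.63 (limma adjusted p = 0.0329) and 1.03 (limma adjusted p = 0.0373). Neither passed without control replicate 1 (adjusted p up to 0.155), control replicate 2 (0.184), prolonged replicate 1 (0.0872) or prolonged replicate 2 (0.0738), and each lost its call without 1 of the temporal arrays.

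Chloroplast division genes themselves gave no call. Of 22 on the list, 3 had a probe set with a single symbol, and all are given here whether or not their arrays separated. FTSZ2-2, which forms part of the inner division ring, read 99.4 and 55.8 in prolonged, 21.0 and 91.8 in temporal, and 173 and 119 in control seedlings. All induced arrays were below both controls but spread widely (log2 fold change -1.33, SE 0.52, limma adjusted p = 0.176). FTSZ2-1, its close relative, read 187 to 224 on induced arrays and 231 and 183 on control arrays, and the groups overlapped (log2 fold change -0.02, SE 0.17). FZL, a dynamin-related protein that shapes thylakoids, read 93.9 to 116 on induced arrays and 110.0 and 153 on control arrays, which also overlapped (log2 fold change -0.32, SE 0.22). At an unadjusted p under 0.05, limma put 1 of the 3 past, FTSZ2-2.

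Further lists held few measured genes. The clock gene GI read 116 to 178 on induced arrays and 15.8 and 114 on control arrays, above both controls but without passing (limma adjusted p = 0.0831). Of 3 root markers, all 3 read lower on every induced array than on both control arrays, none passed, and the median log2 fold change was -1.04. At an unadjusted p under 0.05, limma put 1 of these past. The summed signal of the root markers was 2679 to 3872 in induced and 4172 and 4813 in control seedlings, mostly from PYK10, a root beta-glucosidase. The part of root tissue in the other falls was not tested. No gene passed among 2 cell cycle and 3 starch genes, where limma gave 0 at an unadjusted p under 0.05. The stress-response zinc finger STZ, also called ZAT10, was the single measured gene of the oxidative stress list and read 65.7 to 129 in induced and 31.3 and 59.5 in control seedlings (limma adjusted p = 0.199).

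Prolonged and temporal seedlings were then compared with each other, in a contrast that uses no control array. At 14 of 15922 probe sets, 0.0879%, the exposures differed (limma, adjusted p under 0.05), and 6 of these were among the 911. That count was 0 without the intensity trend (limma, 940 at an unadjusted p under 0.05 with the trend), 6 without prolonged replicate 2 and 1 without either temporal array. Among the 583 rises, 451 (77.4%) read higher after prolonged than after temporal induction, beside 57.1% of all tested probe sets with a pooled log2 fold change above 0. Among the 328 falls, 274 (83.5%) read lower after prolonged induction, beside 58.9% of all with a value below 0. For most of the probe sets that passed, the prolonged arrays thus lay further from control, by small steps. Probe sets on the same arrays are not independent, and control seedlings had a single spray, as had the temporal group. The median prolonged minus temporal log2 difference was 0.18 among rises and -0.18 among falls. For 404 rises (69.3%) and 302 falls (92.1%) the 95% interval of the difference lay within 1 log2 unit of 0. For the others the interval reached beyond 1 log2 unit, so it allows a difference of over 2-fold.

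**Figure D5:**
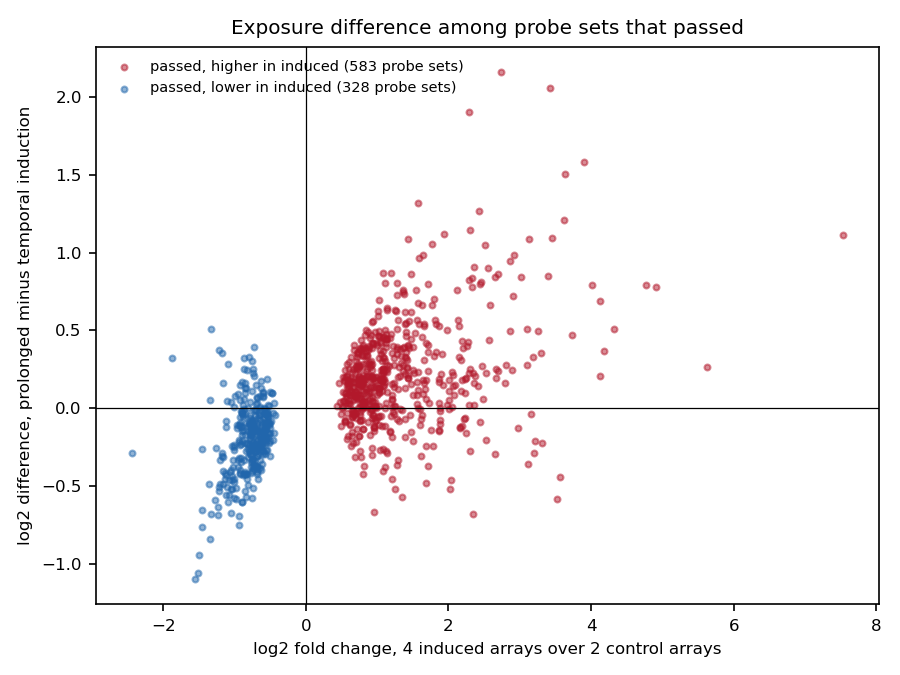
Log2 difference of prolonged minus temporal induction (vertical axis) against the log2 fold change of the 4 induced arrays over the 2 control arrays (horizontal axis) for the 911 probe sets that passed, with rises and falls in separate colours. Most rises lie above 0 on the vertical axis and most falls below it, and few lie beyond 1 log2 unit.

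Set against the same control arrays one exposure at a time, 1107 probe sets (6.95%) passed for prolonged and 386 (2.42%) for temporal induction. Both comparisons share their control arrays and so are not independent of each other or of the pooled one. Of the 911, 761 passed for prolonged, 374 for temporal, 355 for both and 131 for neither. The median log2 fold change of the rises was 1.19 for prolonged and 0.98 for temporal induction, and that of the falls was -0.84 and -0.67. AT5G33370 illustrates a rise of like size in each, with 3.01 for prolonged and 2.77 for temporal induction and a 95% interval of -0.24 to 0.73 for the difference. AT3G15450 gave 1.73 and 1.61, with an interval of -0.25 to 0.49. Among genes named above, AT4G12490, AT4G12500 and AT2G43620 differed between exposures, by 1.90, 2.06 and 2.16 log2 units with limma adjusted p of 0.000284, 0.018 and 0.00942. In all 3 the prolonged arrays were higher, and the temporal arrays still lay above both controls.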

How the data were processed

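RNA of whole seedlings was hybridised to 6 Affymetrix ATH1 arrays after one-cycle labelling, per the labels' protocols. The authors deposited linear signal intensity per probe set, computed by GCOS with the MAS5 method per the submitters' processing notes, with versions and settings not given in the sources used here. Each array's mean signal, trimmed by 2% at each end, was 100.0. The number of arrays limits the precision.

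Signals were log2-transformed, probe sets in the lowest 30% by mean were dropped, and limma 3.58.1 (R 4.3.3) compared 4 induced with 2 control arrays, with the prior spread following signal (eBayes trend, prior df 7.60, residual df 4) and Benjamini-Hochberg adjustment over 15922 probe sets. A fit with 3 groups gave each exposure and their difference. Names came from the platform annotation, updated through TAIR10.1 for 8837 of 8876 tested probe sets with 1 symbol; of all probe sets, 503 have several symbols and 8730 none. For list genes with several probe sets, the one with the highest mean signal was used.

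Genes named were the 12 largest rises and falls, the 8 largest with all arrays above 23.5 units, all measured chloroplast division genes, at most 4 genes per list, taken by smallest p, and 2 rises and 2 falls without symbol. Some other list members with separate arrays were also given. All but 2 division genes had the 4 induced arrays on one side of both controls. Members and lists were chosen with earlier results of these data known, 6 lists after the leading genes were seen. Replicate numbers did not pair the arrays (correlations of deviations -0.06, 0.01 and 0.01). On simulated data of 15922 probe sets, 39% of log2 changes of 1 and 79% of changes of 2 were found. Among 103 calls there, 3 were false. The simulated spread depended on signal level alone, with none particular to a probe set or an array. These rates may thus not hold for the real arrays. Alternatives changed the normalization, an offset, the filter, the trend, a replicate block and the arrays in the fit.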

Additional observations from a re-analysis of the deposited data

Results flagged for a closer look

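For 12 of 210 values checked, 1 induced array stood apart from the other 3 by more than Dixon's 95% limit for 4 values, measured as its gap to the nearest array over the whole range. Chance gives this for about 1 group in 20. Prolonged replicate 2 was the outlying array for 8 of them: it was high for AT1G68875 (0.906), APG8H (0.969) and STZ (0.906), and low for PRK (0.867), SBPASE (0.846), the plastid ribosomal protein gene AT2G43030 (0.893), the photosystem gene PSAE-1 (0.899) and the plastid gene rps2 (0.837). Prolonged replicate 1 was high for ATG8F (0.892) and the plastid gene psbE (0.932) and low for the cytosolic ribosomal protein gene AT1G48830 (0.913). Temporal replicate 2 was low for the cytosolic ribosomal protein gene AT5G60670 (0.947).

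Signals differed between the 2 exposures at 3 named genes, by limma's prolonged minus temporal contrast. The log2 differences were 2.06 for AT4G12500, 2.16 for AT2G43620 and 1.90 for AT4G12490, and for each gene both prolonged arrays were above both temporal arrays.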

How the results depend on the processing

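Under quantile normalization, median centring, cyclic loess, an offset, no filter, a filter on the lowest 50%, a fit with 3 groups and a replicate block, the number of probe sets past the threshold was 751 to 1072 beside 911, with the count of rises and of falls within 1.5 times. The replicate block gave 790 (529 rises and 261 falls, 767 shared with the 911); the replicate numbers did not pair the arrays, and under the block 263549_at, AT4G20760, AT4G31200, rpoC1, the plastid ribosomal gene AT3G54210 and 8 of 25 cytosolic ribosomal falls did not pass. Without the intensity trend, 95 passed (93 rises, 2 falls, 97.9% rises beside 64.0%) and the exposures differed at 0 probe sets. That fit kept 4 of 8 lipid, wax and anther-type rises, 6 of 7 in the group of AT1G26800, and 1 of 6 autophagy and starvation rises. It kept 0 of 7 photosynthesis, photorespiration and pigment genes, and 0 of 5 thiol redox genes. Also kept were 0 of 8 plastid genome and 0 of 6 nuclear plastid ribosomal genes, and 0 of 25 cytosolic ribosomal falls. With the temporal arrays as the only induced ones, 363 passed (214 rises, 149 falls); with the prolonged ones, 812, of which 53.4% were rises. Leaving out 1 array gave 421 to 810 probe sets (all with separate groups), 360 to 513 rises, 61 to 297 falls and 5642 to 8779 separate probe sets, and 1 to 18 for the exposures. Both lowest counts of falls, 61 and 83, came without a control array, where rises made up 85.5% and 83.6%. The rises that lay further from control after prolonged induction numbered 405 to 473 beside 451, and the falls 235 to 276 beside 274. Every alternative kept the direction of the 36 probe sets named as leading rises and falls wherever they were in the fit. FTSZ2-1, near 0, changed sign (-0.18 to 0.15 over the fits without 1 array): it was 0.15 without control replicate 1, 0.00144 without prolonged replicate 1, 0.0244 without temporal replicate 1 and 0.0269 with prolonged arrays only. Lower calls on leaving out an array come with fewer samples in the fit; the cause of the other changes was not tested. The number of arrays, and signals near the floor in control seedlings, limit the size of the largest folds.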
